A study of Arabidopsis with 2 samples.

Results

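Organ boundaries are narrow strips of slow-growing cells that keep a new leaf, cotyledon or flower apart from the meristem and from its neighbours. Besides the NAC transcription factors CUC1, CUC2 and CUC3, several protein families act in these strips or along their edges, and the 10 genes described here are well-known members of them. UFO encodes an F-box protein, which brings target proteins to an SCF ubiquitin ligase and acts with the transcription factor LFY on floral organ identity genes. LSH1, LSH3 and LSH10 encode nuclear proteins with an ALOG domain, LOB and JLO encode LBD transcription factors, BOP1 and BOP2 encode BTB-ankyrin transcriptional co-activators that pattern the leaf base, and DRN and DRNL encode AP2/ERF transcription factors that act in cotyledon formation. The 10 genes were listed by gene identifier. A probe with a matching identifier was found for 7 of them among 21500 gene probes, and LSH1 (AT5G28490), LOB (AT5G63090) and JLO (AT4G00220) were not analysed here.

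The comparison asked which transcripts differ between embryos of wild-type Ler and embryos of the cuc1 cuc2 double mutant, which lacks a normal boundary between its cotyledons. Per the labels, the embryos were at the torpedo stage, the Ler embryos came from Ler parents, and the double-mutant embryos came from parents of genotype cuc1-1 cuc2-1/+. All parents grew on soil at 23 °C in continuous light, and no treatment was given to either genotype. About 100 embryos per genotype were pooled into 1 RNA extract, and both extracts competed on the same array in each of 2 hybridizations. The cuc1 cuc2 cRNA carried Cy5 in the first hybridization and Cy3 in the second. Each genotype was therefore represented by 1 biological replicate, no test between genotypes could be made, and how far the hybridizations lie apart reflects technical error alone. Whole embryos were used, so fewer boundary cells and less RNA per boundary cell cannot be told apart.

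Ratios below are on the log2 scale, with cuc1 cuc2 divided by Ler, so that a negative ratio means a lower signal in the mutant. The error given with a ratio (±) is that of the scanner software's error model. A gene was counted as lower or higher when its ratio was at least 0.5 in size and had the same sign in both hybridizations. Between 87.5% and 88.8% of the gene probes were well above background in each channel, and 18102 were so in all 4 channels. Among these probes the median difference between the hybridizations was 0.143, and the 95th percentile was 0.796. Of the mutated genes, CUC2 (AT5G53950) had a mean ratio of -0.81, which was between -0.49 and -0.30 and did not meet the rule under other processing, CUC1 (AT3G15170) had one of -0.04, and their paralog CUC3 one of -0.03. All 6 embryo markers were well above background in all 4 channels, with summed signals of 38940 and 40900 in Ler and 39130 and 42230 in cuc1 cuc2. LEC1 alone gave most of each of these sums, at 27760 to 30130. Of 10 endosperm and seed coat markers, 5 were well above background in all channels, whereas MEA, PHE1, BAN and TT12 were not in any, and the summed signals were 3822 and 3282 in Ler and 3754 and 3508 in cuc1 cuc2. TT2 was the largest part of each, at 1569 to 1804. None of these 16 markers was counted as lower or higher.

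Of the 7 boundary regulators with a probe, 1 was lower in cuc1 cuc2, against 0.344% of all gene probes, and 0 were higher, against 0.712%. The gene that was lower was UFO. It is among the genes that the study selected from these same hybridizations, so its place in this count is not independent evidence. Apart from the arrays, the study reported UFO as lower by quantitative RT-PCR at the heart stage only. By in situ hybridization it found UFO expression missing from the boundary region of cuc1 cuc2 embryos. The ratio lay below 0 in both hybridizations for 5 of the 7 genes, namely UFO, LSH3, BOP2, DRN and DRNL, against 22.9% of all gene probes, and above 0 in both for 0 of the 7, against 23.1%. The median of the 7 mean ratios was -0.22, beside a median of 0.00 over all gene probes. UFO enters both that count and the median, and the dim BOP1 enters the median. Without UFO and BOP1 the median was -0.15.

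**Figure D1:**
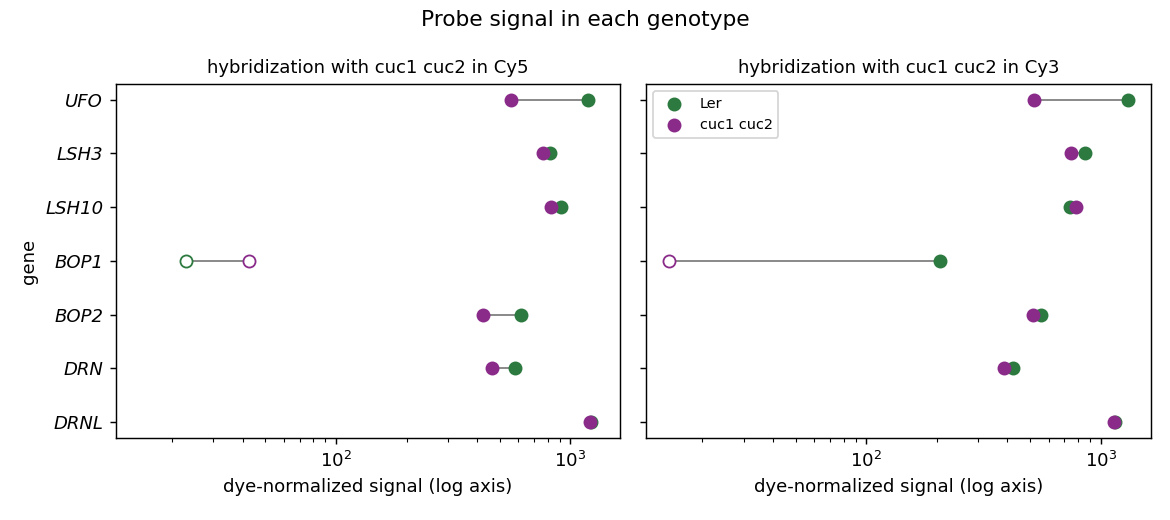
Dye-normalized signal (log axis, arbitrary units) of the 7 boundary regulators in Ler and cuc1 cuc2, with 1 panel per hybridization. UFO is the only one of the 6 genes well above background in every channel whose genotypes are far apart in both panels (1183 and 557.9 in the first, 1302 and 521.2 in the second), and BOP1 lies at the lower end of the scale.

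UFO (AT1G30950) had a dye-normalized signal of 1183 in Ler and 557.9 in cuc1 cuc2 in the first hybridization, and of 1302 and 521.2 in the second. Both Ler values were above both cuc1 cuc2 values. Before background subtraction, its spot had a brightness of 290.2 in Ler and 176.9 in cuc1 cuc2 in the first hybridization, over local backgrounds of 71 and 66. In the second the brightness was 281.5 and 204.9, over backgrounds of 66 and 70. The spot was well above background in all 4 channels, although the mutant channels were less than 3 times the local background. In Cy3 the local background was below the brightness of a dim spot. The spot of NPR2, not well above background in any channel, read 138.2 (Ler, first hybridization) and 137.6 (cuc1 cuc2, second) in Cy3. In Cy5 it read 75.36 (cuc1 cuc2, first) and 78.0 (Ler, second). How far this affects the UFO ratio was not tested. The log2 ratios were -1.08 ± 0.26 and -1.32 ± 0.22, with a mean of -1.20 ± 0.17. This is a 2.3-fold lower signal in cuc1 cuc2, with a 95% interval of -1.54 to -0.87 that covers technical error only. The hybridizations differed by 0.24, which is smaller than the ratio itself. Among the 18102 probes well above background in all 4 channels, only 3 had a lower mean ratio than UFO.

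**Figure D2:**
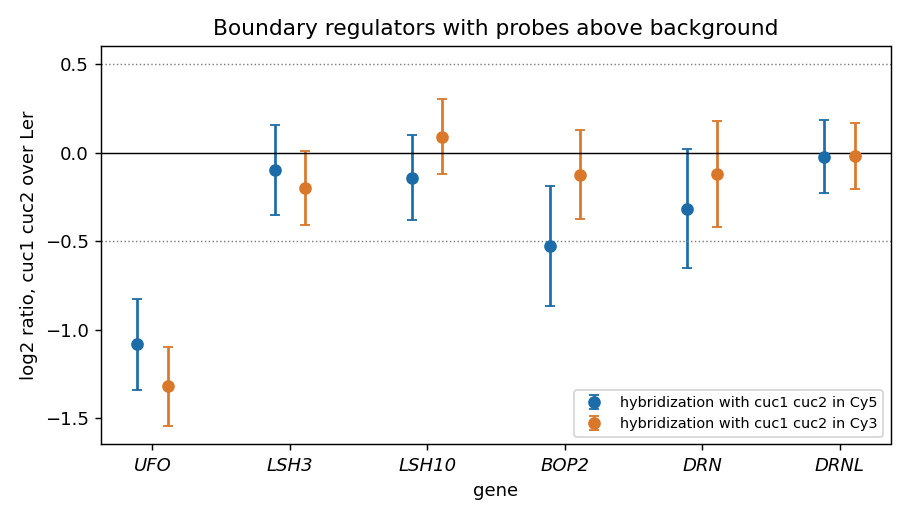
Log2 ratio (cuc1 cuc2 over Ler) for the 6 boundary regulators well above background in every channel. There is 1 point per hybridization, and bars show the scanner software's error. Both UFO points (-1.08 and -1.32) lie below -0.5, and those of LSH3, LSH10, DRN and DRNL lie between -0.32 and 0.09. The BOP2 points lie at -0.53 and -0.13, and the dim BOP1 is not drawn.

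The ALOG genes gave ratios near 0. LSH3 (AT2G31160), also known as OBO1, had signals of 814.2 in Ler and 760.7 in cuc1 cuc2 in the first hybridization, and of 858.2 and 747.6 in the second. Ler was the higher genotype each time, by less than the error. The log2 ratios were -0.10 ± 0.25 and -0.20 ± 0.21, and the interval of the mean (-0.47 to 0.17) includes a signal up to 1.38-fold lower or 1.13-fold higher in the mutant. The study cites earlier work in which LSH3 expression was absent from the boundary region of cuc1 cuc2 embryos. A whole-embryo signal does not resolve that region, so the ratio does not show whether LSH3 changed there. LSH10 (AT2G42610), a less studied relative, had signals of 913.7 in Ler and 827.8 in cuc1 cuc2 in the first hybridization, and of 739.0 and 786.3 in the second. The order of the genotypes turned with the dyes, and the log2 ratios were -0.14 ± 0.24 and 0.09 ± 0.21. Of 6 further ALOG genes, 2 had a probe, and their mean ratios were -0.10 for LSH6 and 0.05 for LSH9, the latter not well above background in every channel.

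The LBD genes LOB and JLO had no matching probe. Of 25 further LBD genes, 15 had a probe, and 12 of these were well above background in every channel. This family is named after LOB and acts in organ boundaries, in lateral root formation and in nitrogen responses. Of the 15, 0 were lower and 0 were higher by the rule above, and their mean ratios ran from -0.25 for LBD16 to 0.40 for LBD41 with a median of 0.06.

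BOP2 (AT2G41370) was measured clearly, whereas BOP1 (AT3G57130), with which it acts redundantly, was not. The BOP2 signals were 612.1 in Ler and 424.7 in cuc1 cuc2 in the first hybridization, and 558.9 and 512.5 in the second. Both Ler values were above both mutant values, with a wider gap in the first hybridization. The log2 ratios were -0.53 ± 0.34 and -0.13 ± 0.25, with a mean of -0.33 ± 0.21. Their difference of 0.40 exceeded the mean, and the interval of the mean (-0.74 to 0.09) includes 0. Taken by itself, the first hybridization put BOP2 and UFO at or below -0.5, as it did 5.45% of all gene probes. The second by itself put UFO and BOP1 there, as it did 5.9% of all gene probes.

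For BOP1, the signal was 22.98 in Ler and 42.62 in cuc1 cuc2 in the first hybridization, and neither channel was well above background. In the second the Ler signal of 207.2 was well above background, and the cuc1 cuc2 signal of 14.42 was not. The genotypes overlapped, because the Ler value of the first hybridization was below a cuc1 cuc2 value. The log2 ratios were 0.00 ± 4.78 and -3.84 ± 1.45. Their mean of -1.92 ± 2.50 was the sixth lowest of all gene probes, but its interval runs from -6.82 to 2.97. In such low spots the software puts a substitute in place of the subtracted signal, as it did in both cuc1 cuc2 channels of BOP1. Of the 25 gene probes with the lowest mean ratio, 19 were likewise not well above background in every channel. The NPR genes, relatives of BOP1 that include receptors of salicylic acid signalling, had mean ratios from 0.00 for NPR3 to 0.13 for the dim NPR1 probe, and 0 of the 4 were lower or higher. The NPR2 probe was not well above background in any channel and held substitutes in all 4. Its ratios of 0.00 ± 5.44 and 0.00 ± 3.02 therefore do not measure the gene.

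The AP2/ERF genes were close to 0. DRN (AT1G12980), also known as ESR1, had signals of 579.0 in Ler and 464.9 in cuc1 cuc2 in the first hybridization, and of 420.7 and 386.9 in the second. Ler was higher within each array, but the lower Ler value was below the higher cuc1 cuc2 value. The log2 ratios were -0.32 ± 0.34 and -0.12 ± 0.30, with a mean of -0.22 ± 0.23. Its paralog DRNL (AT1G24590), also known as ESR2, had signals of 1226 in Ler and 1207 in cuc1 cuc2 in the first hybridization, and of 1155 and 1138 in the second. These pairs were nearly equal, and the log2 ratios were -0.02 ± 0.21 and -0.02 ± 0.19. The interval of the DRNL mean was the narrowest of the 7 genes and includes a signal up to 1.23-fold lower or 1.19-fold higher in cuc1 cuc2. The ERF relatives LEP and PUCHI, which act in leaf growth and in organ initiation, had mean ratios of -0.04 and -0.14. Partners of DRN and JLO in auxin signalling and transport lay between -0.21 for the kinase gene PID and -0.03 for BDL, and 0 of the 5 were lower or higher.

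**Figure D3:**
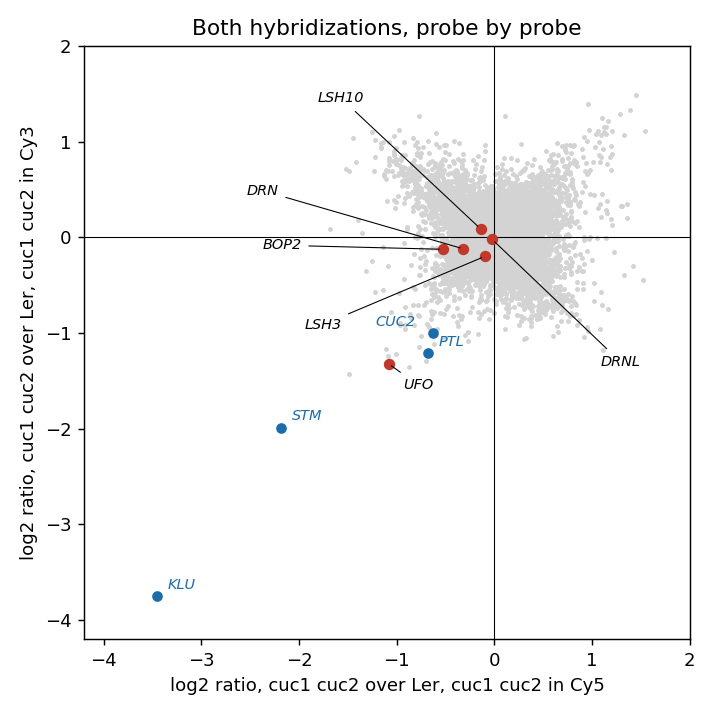
Log2 ratio of the first hybridization (x axis) against the second (y axis) for the 18102 probes well above background in every channel (grey), with the 6 such boundary regulators in red and other named genes in blue. UFO lies away from the other 5, which sit inside the cloud around 0, while KLU and STM lie further out.

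The 6 boundary regulators other than UFO thus held 0 genes that met the rule. Leaving out BOP1 for its dim spot, a choice made after its values were seen, the mean ratios of the other 5 ran from -0.33 to -0.02 with a median of -0.15. For 4 of these 5 the ratio was below 0 both times, against 22.9% of all gene probes, but both hybridizations used the same extracts. For LSH3, DRN and DRNL each ratio was smaller than its error. For 1 of the 5, BOP2, the mean was larger than its own error. By the study's rule, a scanner p-value under 0.01 and a lower ratio in both hybridizations, the count was again UFO alone, against 0.242% of all gene probes. It was UFO alone also with limits of 0.3 and 1 in place of 0.5, where the shares of all gene probes were 1.21% and 0.0419%.

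All 7 listed genes that encode partners of UFO or are targets of LFY and UFO had a probe, and 0 of the 7 were lower or higher. ASK1 and ASK2, which encode the SKP1-like subunits of the SCF complex, had mean ratios of -0.12 and -0.15, and the cullin gene CUL1 had one of -0.12. The ratio was 0.01 for RBX1, which encodes the RING subunit, and -0.04 for LFY. AP3 and PI, the floral homeotic genes on which LFY and UFO act, had mean ratios of -0.01 ± 0.37 and 0.17 ± 0.90. The hybridizations of AP3 went opposite ways at -0.36 and 0.35. PI was dim, with signals of 96.66 to 133.8, and its interval ran from -1.60 to 1.93. Their ratios therefore leave room for changes in either direction.

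**Figure D4:**
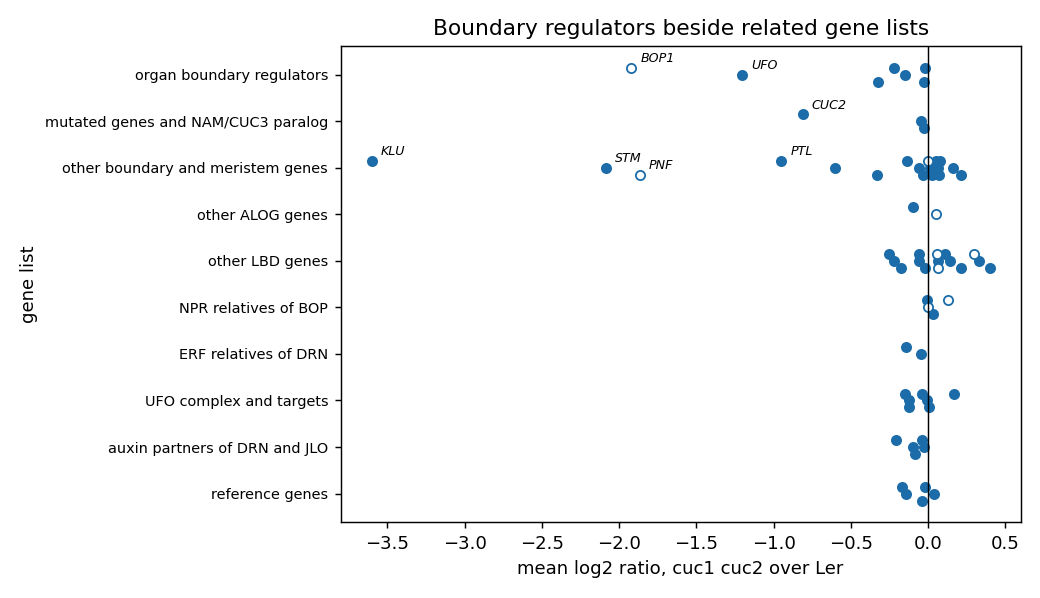
Mean log2 ratio (cuc1 cuc2 over Ler) for each gene of the boundary regulators and of the other gene lists. The embryo, endosperm and seed coat markers are left out, and open points are probes not well above background in every channel. The list medians, which are not drawn, run from -0.22 for the boundary regulators to 0.06 for the other LBD genes. UFO, the dim BOP1, CUC2, STM, PNF, PTL, KLU and PAN lie below -0.5.

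Among 18 further boundary and meristem genes the median was -0.02, and 4 (STM, PNF, PTL and KLU) were lower by the same rule with the deposited ratios. With 4 alternative treatments of background and dyes the count was 2 or 3, with STM and KLU lower under each, PNF under 1 and PTL under 0. This list holds genes that the study also chose from these hybridizations, so its count is not independent evidence either. STM, the KNOX gene that maintains the shoot meristem, had a mean ratio of -2.08, and KLU, which encodes a cytochrome P450 that promotes organ growth, had one of -3.60. PTL, a trihelix transcription factor gene that restrains growth between sepals, had signals of 363.1 in Ler and 225.9 in cuc1 cuc2 in the first hybridization, and of 499.0 and 215.1 in the second. Its ratios of -0.69 and -1.21 were nearest to those of UFO within this list. PNF encodes a BELL homeodomain protein, and its signals were 207.0 in Ler and 63.04 in cuc1 cuc2 in the first hybridization and 317.2 and 78.3 in the second. The mutant channel was not well above background on either array, and the PNF signal was 1.4-fold lower in cuc1 cuc2 with normexp correction and loess and 1.23-fold lower with no background correction. With other background corrections and dye normalizations, the mean ratio was between -0.49 and -0.28 for PTL, between -0.58 and -0.30 for PNF and between -1.27 and -0.79 for STM. PAN, which encodes a bZIP factor that partners with the BOP proteins in flowers, missed the limit narrowly in the second hybridization, with -0.71 and -0.496. The highest mean ratio in the list was 0.21, for KNAT1.

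Over its ratios in both hybridizations, UFO was most like the glutaredoxin-like gene ROXY20 (AT5G11930), at a distance of 0.08 and with ratios of -1.09 and -1.24. HA3, a plasma membrane proton pump gene, followed at 0.13 with -1.01 and -1.21, and SRG3 at 0.15 with -1.11 and -1.17. These distances rest on 2 technical values per gene and are smaller than the errors of the UFO ratios. The study selected ROXY20 from these same hybridizations, as it did UFO, so their closeness is not independent evidence.

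**Figure D5:**
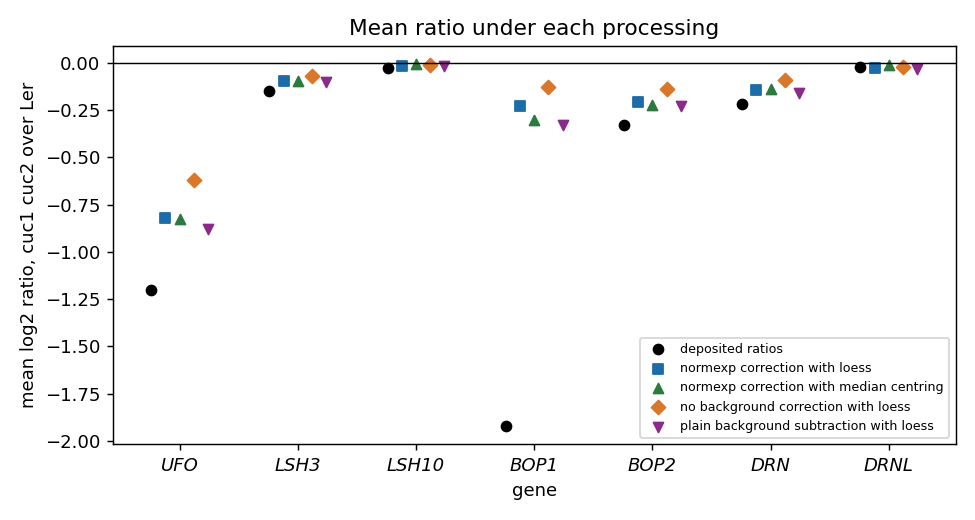
Mean log2 ratio of the 7 boundary regulators under the deposited processing and under 4 other combinations of background correction and dye normalization. UFO moves from -1.20 to between -0.88 and -0.62, BOP1 moves from -1.92 to between -0.33 and -0.13, and no mean changes sign.

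The size of the UFO ratio depended on the processing of the signals. Under 4 other combinations of background correction and dye normalization it lay between -0.88 and -0.62, which is a 1.84-fold to 1.53-fold lower signal, and it met the rule in both hybridizations under each. The same rule took 0.144% of all gene probes as lower with normexp and loess, 0.0698% with normexp and median centring, 0.0837% with no background correction and 0.149% with plain subtraction. The mean ratios of the other 6 boundary regulators also stayed below 0 under each, and that of BOP1 shrank to between -0.33 and -0.13.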

How the data were processed

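Each deposited scanner file held 22575 spots of a two-colour Agilent oligonucleotide array. Per the file headers, Agilent Feature Extraction 7.5.1 subtracted the background and normalized the dyes within each array. The authors deposited spot intensity values, dye-normalized signals, the log10 ratio of red over green, its error and its p-value. By the dye labels, log10 ratios were put on the log2 scale with Ler as the denominator and averaged over the 2 hybridizations, which are technical replicates of the same extracts. The deposited value table held the same log10 ratios. Control spots were left out, and no filter was set on dim probes. Errors of means were propagated from the scanner errors, and 95% intervals are 1.96 errors wide on each side. Alternatives used limma 3.58.1 in R 4.3.3 (normexp with offset 50, or no or plain subtraction of background, with loess, and normexp with median centring). Calculations used Python 3.11.15. The fold rule was tried on simulated ratios with noise smaller than the scanner errors. Changes larger than its limit were planted only in probes well above background, so that trial was easier than the data. Of the gene probes, 21191 matched the RefSeq table of TAIR10.1, used for names and gene order.

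The genes named were the 10 boundary regulators, CUC1, CUC2, CUC3, STM, list members that met the fold rule or marked the range of their list, and the 3 probes nearest to UFO by Euclidean distance over both ratios. PAN and further partners of UFO were named after their values were seen. The boundary regulators and all lists were chosen with earlier results of these data known. Precision is limited by 1 extract per genotype and by median spot brightness of 202 to 243.8 over local backgrounds of 65 to 72. In Cy3, dim spots also read above the local background. Cross-hybridization between paralogs was not tested.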

Additional observations from a re-analysis of the deposited data

How the results depend on the processing

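The mean ratio of UFO was -0.82 with normexp correction and loess, -0.83 with normexp and median centring, -0.62 with no background correction and loess, and -0.88 with plain subtraction and loess, and it met the fold rule under each. The median of the 7 boundary regulators moved under the same settings from -0.22 to -0.14, -0.14, -0.090 and -0.16, and it was -0.18 over the 6 probes well above background. With 1 hybridization left out it lay between -0.14 and -0.13, and the number of boundary regulators lower in cuc1 cuc2 was 2 to 2, namely UFO with BOP2 when the second was left out and UFO with BOP1 when the first was. The ratio of UFO and this median stayed below 0 under each of these settings, whereas LSH10 was at 0.09 without the first hybridization and BOP1 at 0.00 without the second. With the same 4 treatments of background and dyes, PTL lay between -0.49 and -0.28 and met the rule under 0 of them, and PNF lay between -0.58 and -0.30 and met it under 1, with plain subtraction. The cause of these shifts was not tested. No paired analysis was possible because the series holds 1 extract per genotype, used in both hybridizations. In dim spots such as those of BOP1 and PNF, the signal over background limits the ratio.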

Other observations

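Of 197 gene probes described as F-box genes, with UFO included by its identifier, 156 were well above background in all 4 channels. By the fold rule UFO was the only one of the 197 lower in cuc1 cuc2, against 0.344% of all gene probes. In the other direction 0 were higher, against 0.712%. The F-box gene with the next lowest mean ratio among the 156 was AT1G80570, at -0.29, and its hybridizations went opposite ways at 0.07 and -0.64. Their median was 0.00. Of 51 probes described as AP2 genes, DRN and DRNL included, 0 were lower or higher. DRN had the second lowest mean ratio of the 42 AP2 probes that were well above background in all channels, after DREB2C at -0.23, whose hybridizations also went opposite ways at 0.38 and -0.84. These groups were searched by gene description after the values of UFO and DRN were known.

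The nearest measured genes on either side of each boundary regulator gave 14 neighbours, of which 0 were lower or higher. The 13 that were well above background in all channels had mean ratios from -0.17 to 0.14. The genes flanking UFO, AT1G30940 and AT1G30960, had mean ratios of 0.00 and -0.05. This look-up was likewise added after the data were seen.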
